A study of Mus musculus with 6 samples.

Results

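The genes described here are 8 that move glucose and lactate-like acids across cell membranes: the glucose carriers Slc2a1, Slc2a3, Slc2a4 and Slc2a8, the monocarboxylate carriers Slc16a1, Slc16a3 and Slc16a7, and Bsg, which encodes the carrier partner basigin. They were picked by symbol, each matched 1 of the 22958 RefSeq gene entries in every library, and all 8 passed the filter on low counts that left 12661 genes for testing. The libraries come from PECAM1-positive (CD31+) cells sorted from mouse brain at E11.5, on a C57BL/6 x 129/Sv background, with tamoxifen given to the mother at E9.5. In 3 libraries the cells overexpressed Axin1 (genotype Cdhrs5CreERT2:R26Axin1IL+/-). In the 3 control libraries Axin1 was wildtype (Cdhrs5CreERT2:R26Axin1IL-/-), so the Cre line and the tamoxifen were common to both groups. Axin1 organises the destruction complex of beta-catenin, and the series set cells with raised Axin1 against cells without it. The libraries are labelled as biological replicates with no word on litters or pooled embryos, so a p-value here covers only the spread seen among these 6.

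Glucose enters the brain by facilitated diffusion. GLUT1, the product of Slc2a1, is the main glucose carrier of the blood-brain barrier, and its gene is among those that mark barrier endothelium as vessels invade the neural tube under Wnt/beta-catenin signalling. GLUT3 (Slc2a3) is a high-affinity carrier of neurons, GLUT4 (Slc2a4) the insulin-responsive carrier of muscle and fat, and GLUT8 (Slc2a8) a mostly intracellular carrier. Lactate, pyruvate and ketone bodies cross membranes together with a proton through MCT1 (Slc16a1), MCT4 (Slc16a3) and MCT2 (Slc16a7). MCT1 and MCT4 need basigin to reach the cell surface.

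Library totals lay between 10772492 and 14234409 reads assigned to genes. Levels below are read counts scaled to library size (CPM) after TMM normalisation, which corrects for composition, and levels of different genes are compared only as the deposited RPKM, which is per kilobase. The targeted gene, Axin1, read 79.8, 62.2 and 66.2 CPM in Axin1 libraries 1, 2 and 3, against 25.03, 17.6 and 20.8 CPM in controls 1, 2 and 3. Pecam1, the gene of the sorted antigen, lay between 365 and 401 RPKM in the Axin1 libraries and between 365 and 440 RPKM in the controls. Markers of other cells were present in both groups. Over 14 markers, macrophage and microglia genes summed to 269.9, 1347 and 2807 CPM in Axin1 libraries 1, 2 and 3, against 506.1, 905 and 477 in controls 1, 2 and 3.

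Slc2a1 was the highest of the 8 genes in every library and was lower in the Axin1 libraries. It read 1491, 1319 and 1657 CPM in Axin1 libraries 1, 2 and 3, against 3587, 3886 and 3545 CPM in controls 1, 2 and 3. Each Axin1 library lay far below each control, and the spread within a group was small (1489 ± 169 CPM in the Axin1 libraries and 3673 ± 186 CPM in the controls, SD, n = 3 each). The log2 fold change was -1.30 (SE 0.11, 95% confidence interval -1.55 to -1.05), a 2.47-fold fall (adjusted p 0.00461 in edgeR's quasi-likelihood test). Slc2a1 was the 1 member that fell, and 0 rose; over all tested genes 0.49% were called lower and 0.355% higher by the same rule (0.845% in all). By DESeq2, which called 2.52% of genes lower and 3.17% higher, Slc2a1 was also the 1 member called. DESeq2 gave no adjusted p for some genes with few reads, among them the members Slc2a4, Slc2a8 and Slc16a7. Slc2a1 and Slc16a1 were the members whose groups did not overlap, as for 23.8% of all tested genes. Its unadjusted p was second in rank among the 12661 genes.

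In RPKM, Slc2a1 held place 143, 161 and 108 among all gene entries of Axin1 libraries 1, 2 and 3, against place 54, 45 and 48 in controls 1, 2 and 3. In bulk RNA, fewer cells of a type and less RNA per cell cannot be told apart. Set against Pecam1 within each library, the ratio of Slc2a1 reads to Pecam1 reads was 1.12, 1.115 and 1.36 in Axin1 libraries 1, 2 and 3 and 2.80, 2.67 and 2.96 in controls 1, 2 and 3. Against the sum of 14 pan-endothelial markers, it averaged 0.130 ± 0.0200 in the Axin1 libraries and 0.330 ± 0.0210 in the controls (SD, n = 3 each). The difference in mean log2 ratio to that sum was -1.35, with p = 0.10 in a two-sided exact permutation test, the smallest p that 3 against 3 libraries allow. This ratio was chosen after the data were seen.

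The call for Slc2a1 was lost when either of 2 libraries was left out. Without Axin1 library 2 the edgeR adjusted p was 0.0721 (log2 fold change -1.23), and without control 2 it was 0.052 (-1.26). Neither of these 2 fits called any gene, so the loss was not particular to Slc2a1. The other fits that left out 1 library gave edgeR adjusted p values between 8.76e-04 and 0.0201. The 3 genes with a mean of at least 5 CPM whose library profile lay nearest to that of Slc2a1 were Gpr4, a proton-sensing receptor gene, Tpd52l1 and Ptgis, the prostacyclin synthase gene. Their root mean square distance from Slc2a1 on the centred log2 scale was 0.112, 0.124 and 0.138 over the 6 libraries, among 10128 genes compared. Each of the 3 was itself called lower, with log2 fold changes of -1.24, -1.27 and -1.35, as were 0.49% of all tested genes. The distance includes the group difference, so fold changes close to that of Slc2a1 were built into the choice of these genes.

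**Figure D1:**
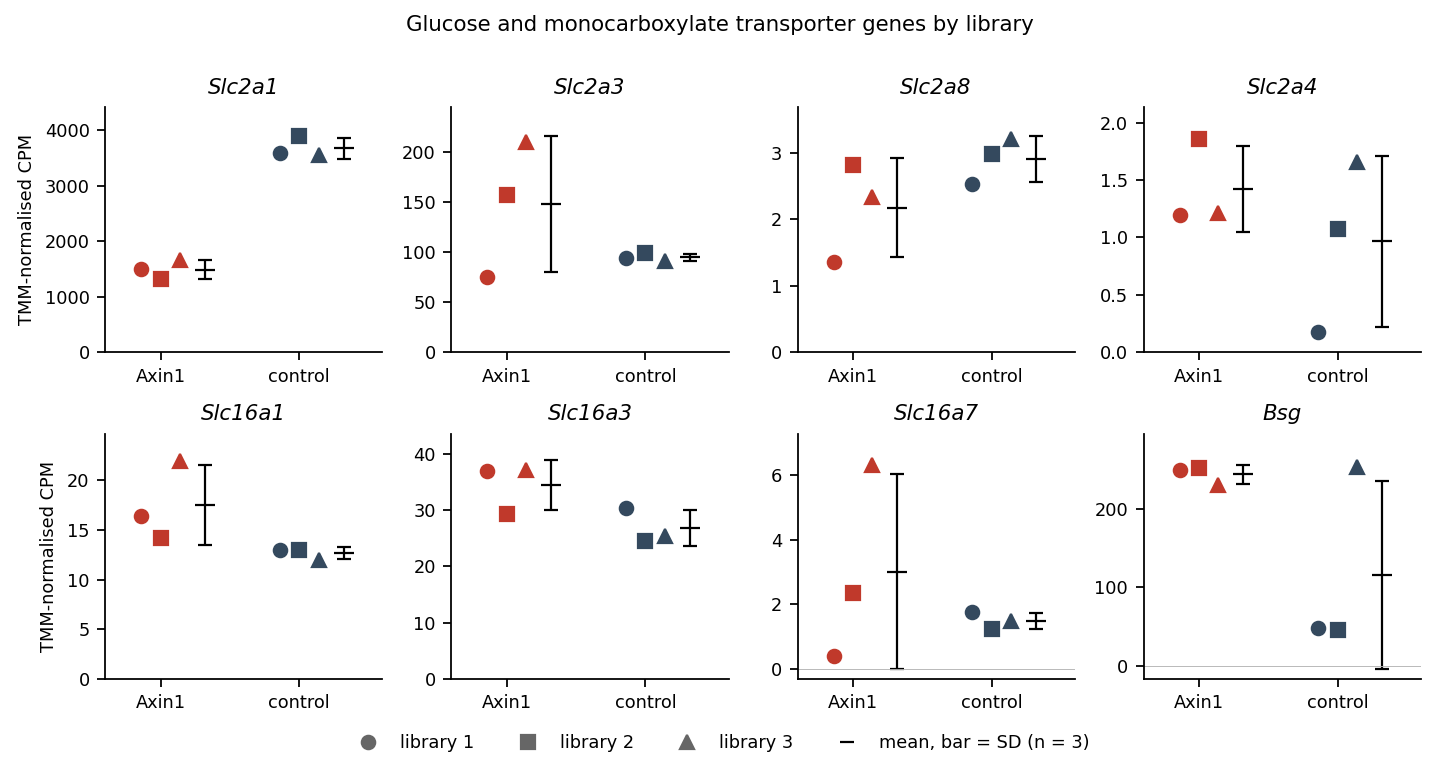
TMM-normalised CPM (linear axes from 0 or just below, 1 scale per panel) of the 8 genes in each Axin1 and control library; symbols mark libraries 1, 2 and 3, and the black bar is the mean with its SD (n = 3). Slc2a1 is separated between the groups, Bsg is low in controls 1 and 2 only, and Slc2a3 and Slc16a7 spread widely among the Axin1 libraries.

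Promoter sequence was at hand for 4 of the 8 genes in RefSeq's table for GRCm38.p6 (250 bases before to 50 after the annotated start). The deposited reads were mapped to another build, mm9, and carry no positions. Both strands were searched for CTTTGA, a form of the TCF/LEF core, and ACGTG, the core of hypoxia-inducible factor sites. The search also took in CACGTG, the E box, which contains ACGTG, and GGGCGG, the Sp1 box. Other forms of the TCF/LEF core were not searched. The window of Slc2a1, the gene that fell, is shown with that of Slc16a3, the lactate exporter gene that did not pass the test. Both genes are known to respond to hypoxia. Capitals mark matches on either strand.
Slc2a1, GRCm38.p6 chr4:119108495-119108794, plus strand: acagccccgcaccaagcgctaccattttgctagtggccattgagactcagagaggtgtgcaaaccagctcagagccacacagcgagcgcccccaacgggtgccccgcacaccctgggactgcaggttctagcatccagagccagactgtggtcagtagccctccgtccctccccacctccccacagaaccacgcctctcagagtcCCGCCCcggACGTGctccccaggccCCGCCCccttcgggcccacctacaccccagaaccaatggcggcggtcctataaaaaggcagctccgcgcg
Slc16a3, GRCm38.p6 chr11:120948817-120949116, plus strand: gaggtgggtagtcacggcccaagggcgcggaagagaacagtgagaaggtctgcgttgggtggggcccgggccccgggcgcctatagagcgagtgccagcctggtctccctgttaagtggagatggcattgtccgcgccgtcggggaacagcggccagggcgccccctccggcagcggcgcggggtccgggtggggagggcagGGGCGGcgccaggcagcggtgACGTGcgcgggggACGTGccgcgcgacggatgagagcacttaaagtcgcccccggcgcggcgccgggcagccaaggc
The Slc2a1 window held 1 ACGTG, at bases 215 to 219, between 2 Sp1 boxes on the minus strand at bases 206 to 211 and 231 to 236. The Slc16a3 window held 2 ACGTG, at bases 224 to 228 and 237 to 241, after 1 Sp1 box at bases 203 to 208. Among the windows of Slc2a1, Slc2a8, Slc16a1 and Slc16a3, 0 of 4 held CTTTGA, 3 of 4 held ACGTG, 1 of 4 held CACGTG and 3 of 4 held GGGCGG. Of all 32851 promoter windows in the table, 16.0%, 19.6%, 7.15% and 35.7% held these 4 motifs in that order. A match describes letters in the window and no binding was measured.

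Slc2a3 did not pass the test, and its Axin1 libraries disagreed among themselves. It read 75.3, 157.8 and 210.5 CPM in Axin1 libraries 1, 2 and 3, against 94.2, 98.9 and 91.2 CPM in controls 1, 2 and 3. Axin1 library 1 lay below every control while Axin1 libraries 2 and 3 lay above every control. The coefficient of variation was 46.1% among the Axin1 libraries and 4.12% among the controls. The log2 fold change was 0.64 (SE 0.34, 95% confidence interval -0.19 to 1.47; adjusted p 0.404, edgeR). Without Axin1 library 1 it was 0.96 (adjusted p in edgeR 0.0541), and without Axin1 library 3 it was 0.30 (adjusted p in edgeR 0.751). The nearest profiles were those of Cd63, a tetraspanin gene of late endosomes, Scarb2, a lysosomal membrane protein gene, and Colec12, a scavenger receptor gene, at distances of 0.0418, 0.101 and 0.110. Slc2a3 was lowest in Axin1 library 1 and highest in Axin1 library 3, as were the summed macrophage markers given above. The same order among Axin1 libraries 1, 2 and 3 was seen for summed erythroid markers (239, 1280 and 2642 CPM) and summed megakaryocyte and platelet markers (690, 1899 and 2395 CPM). In controls 1, 2 and 3 these sums were 676, 1853 and 3060 CPM and 1523, 1466 and 1599 CPM, neither in the order of Slc2a3. The macrophage sums there (506, 905 and 477 CPM) were in its order but spread far more widely. All 13 macrophage markers tested had a positive log2 fold change (median 1.22) and 0 passed, by edgeR, by DESeq2 or at an unadjusted p of 0.05. The part of these 3 kinds of cell in the Slc2a3 values was not tested.

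Slc2a8 and Slc2a4 were near the lower limit of what these libraries measure. For Slc2a8 there were 17, 41 and 27 reads in Axin1 libraries 1, 2 and 3, against 29, 39 and 35 reads in controls 1, 2 and 3. The groups overlapped (log2 fold change -0.42, 95% confidence interval -1.36 to 0.52, adjusted p in edgeR 0.654). For Slc2a4 there were 15, 27 and 14 reads in the Axin1 libraries, against 2, 14 and 18 reads in the controls. Control 1 alone was low, and its 2 reads have an exact 95% Poisson interval of 0.242 to 7.23 reads, which covers counting error only. The log2 fold change of Slc2a4 was 0.56 (95% confidence interval -1.04 to 2.15, adjusted p in edgeR 0.733), an interval that spans a fold change in either direction. It was 0.068 without control 1, 0.31 without Axin1 library 2 and 1.15 without control 3.

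The make-up of the glucose carriers was compared on the per-length scale. Slc2a1 made up 96.7%, 92.5% and 92.2% of the summed RPKM of the 4 glucose carriers in Axin1 libraries 1, 2 and 3, against 98.2%, 98.3% and 98.2% in controls 1, 2 and 3. The groups did not overlap, with means of 93.8% ± 2.51 and 98.2% ± 0.0240 (SD, n = 3 each), and a two-sided exact permutation test gave p = 0.10, the smallest it can give. The fall of Slc2a1 given above lowers this share by itself, so the share is not a separate result. The level of Slc2a1 remained the highest of the 4 by a wide margin in both groups. It was 576 ± 58.7 RPKM in the Axin1 libraries and 1407 ± 80.1 RPKM in the controls, while Slc2a3 was at 37.2 ± 17.1 RPKM in the Axin1 libraries and 23.6 ± 1.03 RPKM in the controls.

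The monocarboxylate carriers did not pass the test. Slc16a3 was the highest of them in RPKM. It read 36.8, 29.3 and 37.0 CPM in Axin1 libraries 1, 2 and 3, against 30.4, 24.5 and 25.4 CPM in controls 1, 2 and 3. Control 1 lay above Axin1 library 2, so the groups overlapped (log2 fold change 0.36, SE 0.16, 95% confidence interval -0.01 to 0.74, adjusted p in edgeR 0.306). Slc16a1 read 16.5, 14.2 and 22.0 CPM in the Axin1 libraries, against 12.95, 13.04 and 11.95 CPM in the controls. Each Axin1 library lay above each control, and 11.3% of all tested genes had groups apart in that direction. Its log2 fold change was 0.47 (SE 0.21, 95% confidence interval -0.01 to 0.95; adjusted p 0.304, edgeR). Unadjusted, the p-values of Slc16a1 and Slc16a3 were 0.0545 and 0.0561. Without Axin1 library 3 the log2 fold change of Slc16a1 was 0.28.

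Slc16a7 was scarce and uneven. It had 5, 34 and 73 reads in Axin1 libraries 1, 2 and 3, against 20, 16 and 16 reads in controls 1, 2 and 3. Axin1 library 1 was the lowest of all 6 and Axin1 library 3 the highest. The log2 fold change was 1.02 (SE 0.81, 95% confidence interval -0.85 to 2.88, adjusted p in edgeR 0.572), and without Axin1 library 3 it was -0.10. The 3 nearest profiles were those of Clec5a, Vav1 and Plek, genes known from myeloid and other blood cells, at distances of 0.210, 0.276 and 0.293. Like Slc2a3, Slc16a7 followed the order of the summed macrophage, erythroid and megakaryocyte markers among the Axin1 libraries. Among the controls it was highest in control 1, where none of these sums was highest. The part of such cells in the Slc16a7 values was not tested. Exons of Slc16a7 overlap Gm47862 on the opposite strand in GENCODE M21, and those of Slc2a1 overlap Gm12868. No source used here gives the strand setting of the counting, so reads of such pairs cannot be told apart. Of the 36-base words in Slc2a1 transcripts 1.96% occurred in another gene's transcripts, and for Slc16a7 1.82%. The other 6 genes shared 0 such words with another gene.

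The same comparison was made for the monocarboxylate carriers. Slc16a1 made up 20.2% ± 1.19 of the summed RPKM of Slc16a1, Slc16a3 and Slc16a7 in the Axin1 libraries and 19.7% ± 1.84 in the controls (SD, n = 3 each). The difference of 0.547 percentage points had p = 0.70 in a two-sided exact permutation test. It changed sign without Axin1 library 3 (-0.133) and without control 1 (-0.349).

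Bsg divided the controls. It read 250.1, 252.3 and 230.5 CPM in Axin1 libraries 1, 2 and 3, against 48.5, 44.9 and 254.4 CPM in controls 1, 2 and 3. Controls 1 and 2 were low, while control 3 lay above all 3 Axin1 libraries. With all libraries the log2 fold change was 1.08 (SE 0.75, 95% confidence interval -0.84 to 2.99, adjusted p in edgeR 0.536). Without control 3 it was 2.37 (adjusted p 4.24e-04, edgeR), in a fit that called 3.97% of its genes higher and 1.41% lower. Without control 1 it was 0.71 and without control 2 it was 0.69, with edgeR adjusted p values of 0.776 and 0.742. The contrast thus hung on which controls were used, and no rise of Bsg is called here.

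**Figure D2:**
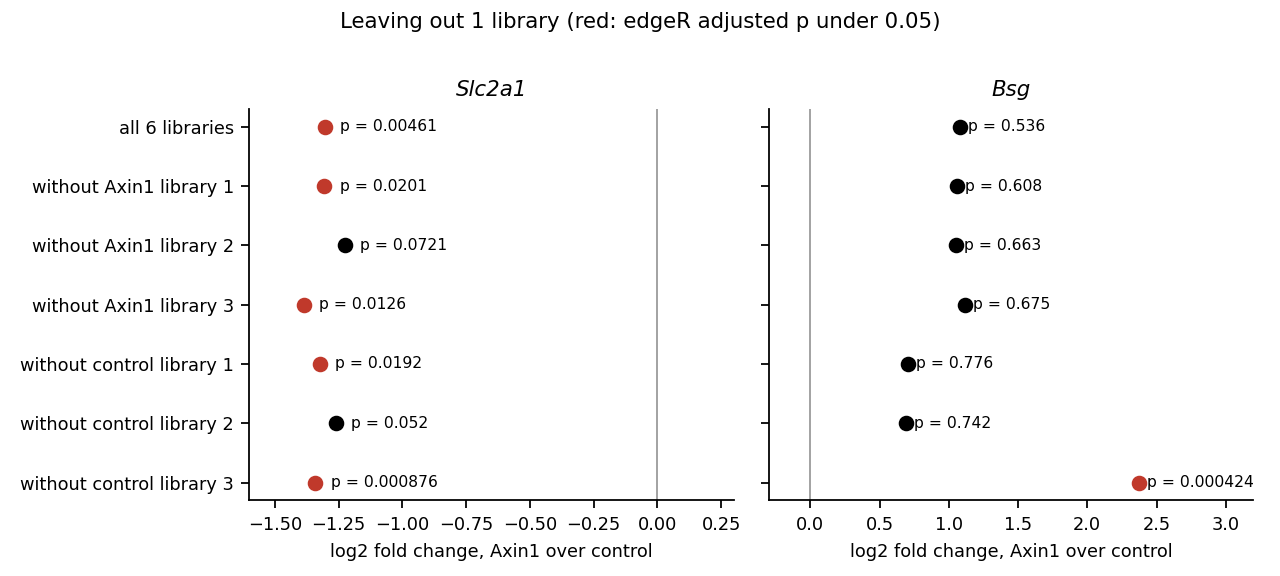
Log2 fold change (Axin1 over control) of Slc2a1 and Bsg with all 6 libraries and with each library left out, with the edgeR adjusted p beside each point. Slc2a1 stays between -1.39 and -1.23, while Bsg lies between 0.69 and 1.12 except without control 3, where it is 2.37.

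The Bsg profile was shared by other genes. Among the nearest profiles were those of Mrpl54, a mitochondrial ribosomal protein gene, and Atp5d, an ATP synthase subunit gene, at distances of 0.0781 and 0.0941. Mrpl54 read 52.4, 51.0 and 46.2 CPM in Axin1 libraries 1, 2 and 3, against 9.975, 8.05 and 47.25 CPM in controls 1, 2 and 3. Of 10133 genes with a mean of at least 5 CPM, 159 had controls 1 and 2 both at least 2-fold below each of the other 4 libraries, and 0 had them at least 2-fold above. That rule was set after the Bsg values were seen, and Bsg was the 1 member among the 159. The median GC content of their longest protein-coding transcripts was 55.3% (138 of the 159 matched in GENCODE M21), against 49.7% for the 9089 matched of all 10133. Their median length was 2106 bases, against 3283 bases. For Bsg these values were 57.6% and 1526 bases. The part of GC content and length in the Bsg difference was not tested.

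Read against its partner, Bsg stood above Slc16a1 by 5.58, 5.81 and 5.05 on the log2 RPKM scale in Axin1 libraries 1, 2 and 3, against 3.57, 3.44 and 6.07 in controls 1, 2 and 3. Control 3 had the highest ratio of all 6. The difference of 1.12 between the group means had p = 0.40 in a two-sided exact permutation test. It was 0.66 without control 2 and 1.98 without control 3.

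**Figure D3:**
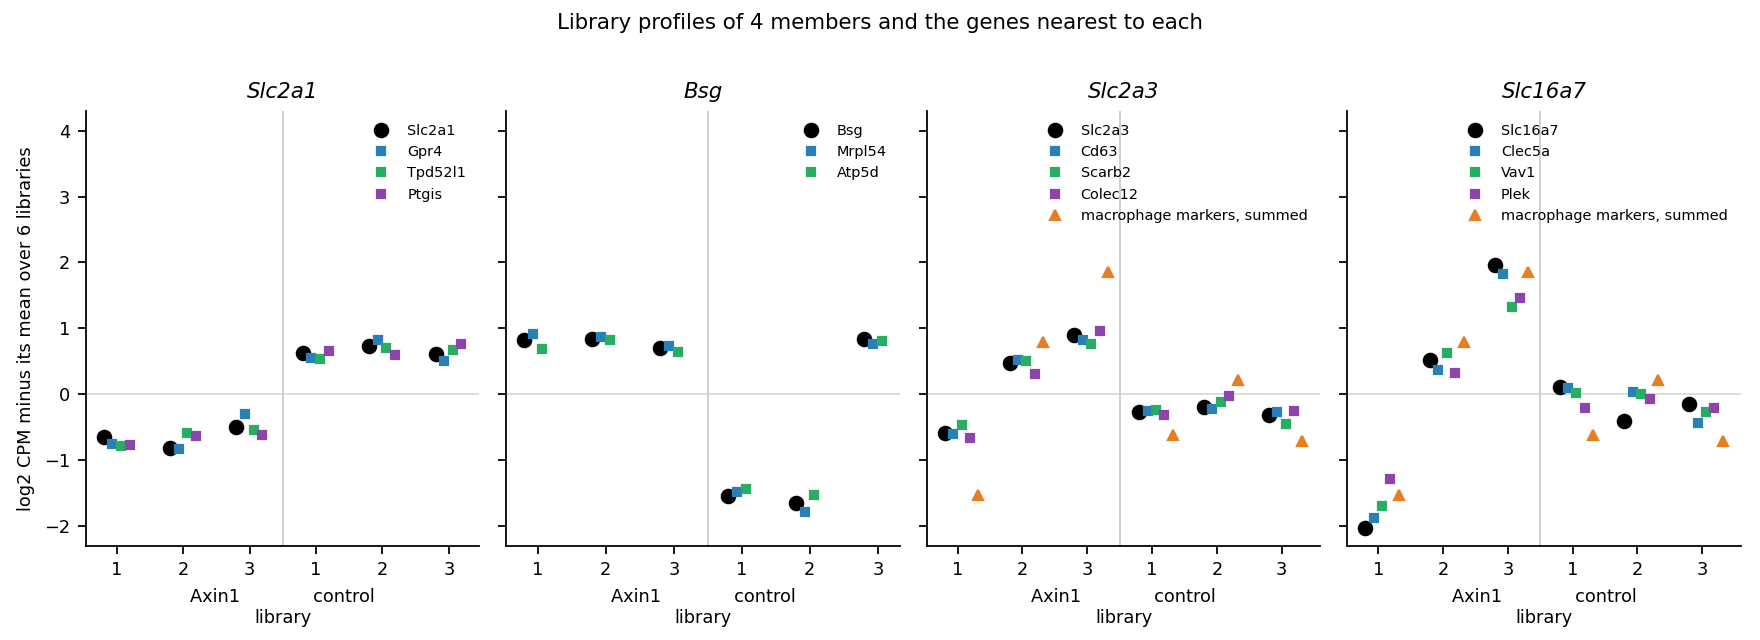
Log2 CPM minus its mean over the 6 libraries for Slc2a1, Bsg, Slc2a3 and Slc16a7 (black circles) and genes nearest to each (squares, 2 for Bsg and 3 for the others), by library; orange triangles show the summed macrophage markers. Slc2a1 separates the groups, Bsg and its like genes are low in controls 1 and 2, and Slc2a3 and Slc16a7 are lowest in Axin1 library 1 and highest in Axin1 library 3.

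By level per length, the 8 genes kept nearly 1 order in both groups. From the top it was Slc2a1, Bsg, Slc2a3, Slc16a3 and Slc16a1, and between each of these and the next the ranges over 3 libraries did not overlap in either group. The mean RPKM of Slc2a1 was 3.32 times that of Bsg in the Axin1 libraries and 17.2 times in the controls, where Bsg ranged from 31.7 to 181 RPKM. Below them, Slc16a7 (1.24 ± 1.23 RPKM), Slc2a8 (1.03 ± 0.361 RPKM) and Slc2a4 (0.508 ± 0.143 RPKM) had overlapping ranges in the Axin1 libraries. In the controls Slc2a8 (1.37 ± 0.179 RPKM) lay above Slc16a7 (0.603 ± 0.0976 RPKM), and Slc16a7 and Slc2a4 (0.344 ± 0.268 RPKM) overlapped (SD, n = 3 each).

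Related carriers were described from lists of family genes. Counts at an unadjusted p under 0.05 in the lists that follow are to be read against the 17.2% of all tested genes at that level. Calls by edgeR in these lists are to be read against 0.49% of all tested genes lower and 0.355% higher. For calls by DESeq2 the shares over all tested genes were 2.52% lower and 3.17% higher. Of 8 other hexose carriers of the SLC2 family 6 were tested, and 0 passed by edgeR, by DESeq2 or at an unadjusted p of 0.05. Their median log2 fold change was 0.24, against 0.02 over all tested genes. The fructose carrier gene Slc2a5 had 0.86 and Slc2a6 had 1.03, with wide spreads. Slc2a6 read 0.479, 1.31 and 4.76 CPM in Axin1 libraries 1, 2 and 3, against 1.05, 1.53 and 0.551 CPM in controls 1, 2 and 3. Slc2a5 read 2.08, 5.23 and 6.48 CPM in the Axin1 libraries, against 3.325, 3.83 and 0.368 CPM in the controls. Within each group Slc2a5 and Slc2a6 kept the order of the summed macrophage markers, which the other tested genes of this list did not. The part of macrophages in these values was not tested. Of 10 sodium-coupled carriers 2 were tested. The sodium-glucose carrier genes Slc5a1 and Slc5a2 had at most 3 reads in an Axin1 library and at most 11 in a control.

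Slc5a3, the myo-inositol carrier gene, read 90.4, 63.6 and 68.7 CPM in Axin1 libraries 1, 2 and 3, against 48.0, 37.6 and 43.0 CPM in controls 1, 2 and 3. Its groups were apart, with a log2 fold change of 0.79 (SE 0.17). The edgeR adjusted p was 0.0719 and that of DESeq2 was 0.00345, and without a filter on low counts that of edgeR was 0.0444, over a range of 0.00131 to 0.266 in all alternatives.

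Of 12 other SLC16 genes, embigin included, 7 were tested and 0 passed by edgeR, with 3 at an unadjusted p under 0.05 (17.2% of all tested genes) and 2 called by DESeq2. All 3 were lower in the Axin1 libraries with groups apart, Slc16a4 and Slc16a13 among them; 12.4% of all tested genes had groups apart in that direction. Slc16a4, an orphan carrier gene, had 3.52, 4.68 and 3.03 CPM in the Axin1 libraries, against 8.57, 10.8 and 8.27 CPM in the controls. Its log2 fold change of -1.30 (SE 0.28) equalled that of Slc2a1 to 2 decimals, at an adjusted p of 0.077 by edgeR, 0.00846 by DESeq2 and 0.0443 by edgeR without control 3. The fit without control 3 called 1.41% of its genes lower, against 0.49% with all libraries. Embigin (Emb), the preferred partner of MCT2, had a log2 fold change of -0.04 (adjusted p in edgeR 0.972).

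**Figure D4:**
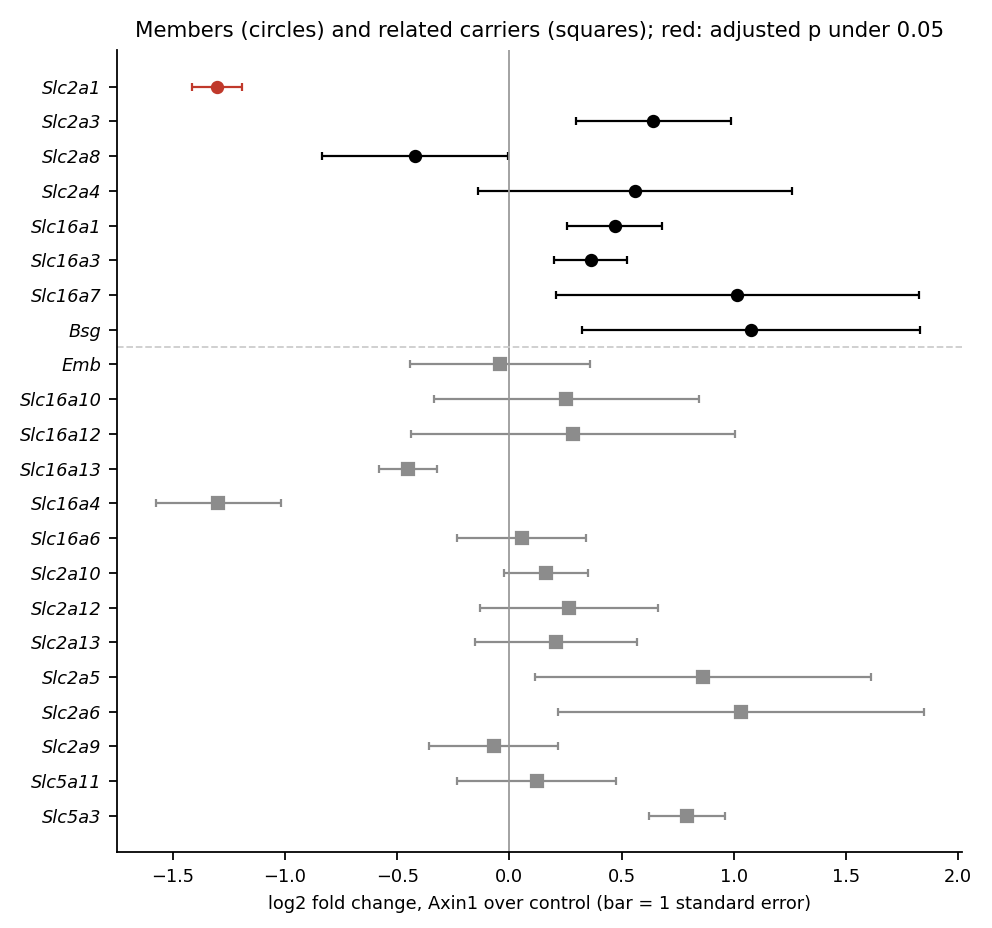
Log2 fold change (Axin1 over control) with 1 standard error for the 8 genes (circles) and 14 other tested genes of the carrier lists, Emb included (squares); red marks an edgeR adjusted p under 0.05. Slc2a1 at -1.30 is the 1 called gene, and Slc16a4 and Slc16a13 are the lowest of the squares.

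Enzymes that act on the carried sugars and acids showed 0 calls among 15 tested of 17 listed by edgeR, with 3 at an unadjusted p under 0.05, near the 17.2% of all tested genes, and 1 called by DESeq2. Hexokinase 2 (Hk2), which traps glucose in the cell, read 18.3, 21.1 and 28.3 CPM in Axin1 libraries 1, 2 and 3, against 14.5, 13.0 and 16.4 CPM in controls 1, 2 and 3 (log2 fold change 0.62, adjusted p in edgeR 0.190). Lactate dehydrogenase A (Ldha) had a log2 fold change of -0.28 (adjusted p in edgeR 0.259). Brp44, now named Mpc2, a subunit of the mitochondrial pyruvate carrier, was called by DESeq2 (log2 fold change 1.51, adjusted p 0.00642) and not by edgeR (adjusted p 0.140). It read 18.5, 20.4 and 21.2 CPM in the Axin1 libraries, against 3.59, 5.21 and 12.3 CPM in the controls. Controls 1 and 2 lay at least 2-fold below each other library, the pattern given above for Bsg and 159 genes in all. Without control 3 the edgeR adjusted p of Brp44 was 0.00267, in a fit that called 3.97% of its genes higher and 1.41% lower.

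Among 22 tested of 23 listed regulators of glucose carrier trafficking and transcription, 1 rose and 0 fell by edgeR (0.355% and 0.49% of all tested genes). At an unadjusted p under 0.05 there were 8 (17.2% of all tested genes). DESeq2 called 3 (Aspscr1, Insr and Myc), against 3.17% of all tested genes higher and 2.52% lower. The riser was Aspscr1, whose product TUG tethers GLUT4 vesicles in mouse fat cells. It read 29.2, 35.7 and 37.2 CPM in Axin1 libraries 1, 2 and 3, against 18.6, 14.1 and 16.4 CPM in controls 1, 2 and 3. The log2 fold change was 1.06 (SE 0.18; adjusted p 0.0438, edgeR). That p was 0.058, 0.158 and 0.114 without Axin1 libraries 1, 2 and 3, and 0.127 and 0.207 without controls 1 and 2. The insulin receptor gene Insr was not called by edgeR (log2 fold change -0.73, adjusted p 0.140), but was by DESeq2 (adjusted p 0.0354). It also passed without control 3 (adjusted p in edgeR 0.0341), in a fit that called 1.41% of its genes lower, against 0.49% with all libraries. Myc had a log2 fold change of 0.74 with adjusted p values of 0.191 by edgeR and 0.0429 by DESeq2. Txnip, whose product promotes GLUT1 uptake from the surface, had a log2 fold change of -0.32 (adjusted p in edgeR 0.247).

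Of 12 hypoxia-inducible genes 11 were tested, and 0 passed by edgeR or DESeq2, with 2 at an unadjusted p under 0.05, a share near the 17.2% of all tested genes. These were Ndrg1 (log2 fold change 0.64, adjusted p in edgeR 0.144) and the prolyl hydroxylase gene Egln3 (1.26, adjusted p in edgeR 0.148). The median of the 11 was 0.07.

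Marker lists of other cells had 0 calls by edgeR. Erythroid markers are of interest because red cells of some species and ages also carry GLUT1 and MCT1. The erythroid markers summed to between 239 and 2642 CPM in the Axin1 libraries and between 676 and 3060 in the controls. For megakaryocyte markers the ranges were 690 to 2395 and 1466 to 1599, for neural markers 349 to 367 and 282 to 481, and for pericyte and mesenchyme markers 87.6 to 123 and 49.6 to 101, Axin1 libraries before controls in each. Among tested markers 0 erythroid, 1 megakaryocyte, 0 neural and 0 pericyte genes had an unadjusted p under 0.05, and DESeq2 called the 1 megakaryocyte gene, Clec1b. Of 14 pan-endothelial markers 0 passed by edgeR, with 3 at an unadjusted p under 0.05 (17.2% of all tested genes), and DESeq2 called 1, Cdh5. Cdh5 was higher in the Axin1 libraries (log2 fold change 0.68). It read 981, 945 and 924 CPM in Axin1 libraries 1, 2 and 3, against 432, 502 and 846 CPM in controls 1, 2 and 3. Cdh5 is part of the endothelial sum that Slc2a1 was set against. The summed pan-endothelial level lay between 10760 and 12200 CPM in the Axin1 libraries and between 10900 and 11360 in the controls. The part of other cells in the Slc2a1 values was not tested.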

How the data were processed

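Polyadenylated RNA of 6 libraries was sequenced after SMARTer low-input cDNA synthesis, per the labels' protocols. The authors deposited, per the file headers, a whole-number read count and an RPKM/FPKM value per RefSeq gene entry. Bowtie and the mm9 build are named in the submitters' processing notes, with the counting program and strand setting not given in the sources used here. Counts were tested as deposited with edgeR 4.0.16 (R 4.3.3): filterByExpr (minimum count 10, minimum total 15), TMM, robust quasi-likelihood test, Benjamini-Hochberg adjustment over 12661 genes, threshold 0.05. Standard errors are the log2 fold change divided by the square root of F. The model was also run on simulated data with a constant dispersion set below that of these libraries. That run does not show how the test performs at their spread. The authors' RPKM served for levels between genes and for ratios. Alternatives used DESeq2 1.42.0, limma 3.58.1, other scalings and filters, and left-out libraries. Named genes were the 8, Axin1 and up to 4 genes of each related list with the smallest p, plus 3 nearest profiles per gene; 2 of the named genes are not reported here. Pecam1, Txnip, Emb, Cdh5 and Clec1b were named outside that rule, after their values were seen. The genes and lists were chosen with earlier results of these data known. Mpc1, Mpc2 and Spi1 were found under older symbols. Every pair of libraries differed by more than sampling noise (chi-square over its degrees of freedom of 16 or more). The common biological coefficient of variation was 25.3%. Intervals cover counting error or library spread only, and PCR copies are not separate molecules.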

Additional observations from a re-analysis of the deposited data

How the results depend on the processing

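Slc2a1 kept its direction in all 18 alternatives and passed in 16; leaving out 1 library gave log2 fold changes from -1.39 to -1.23, and the lowered member count was 0 to 1. The number of risen members was 1, not 0, in the 4 libraries that share a title number, with that number as a replicate block, and 0 to 1 with 1 library left out. The added member was Bsg, at 2.42 under that replicate block (adjusted p in edgeR 8.45e-09) and from 0.69 to 2.37 with 1 library left out; both fits that call it lack control 3. Slc16a7 turned to -0.36 under that block and ranged from -0.10 to 1.53 with 1 library left out. The Slc16a1 share difference ranged from -0.35 to 1.49 percentage points with 1 library left out. Slc2a3, Slc2a4, Slc2a8, Slc16a1 and Slc16a3 kept their direction and passed in none of their alternatives. Over all genes, 62 lower and 45 higher calls became 103 and 94 without the count filter, 319 and 401 in DESeq2, 30 and 21 without the robust step, 531 and 969 under the title-number block, and 0 to 182 and 0 to 513 with 1 library left out. Without Axin1 library 2 or control 2, edgeR called 0 genes, with 1733 and 1539 at an unadjusted p under 0.05. Among related genes, signs turned for Slc2a6 (-0.22 without Axin1 library 3, the lowest of a leave-one-out range up to 1.501, and -0.60 under the title-number block), Slc2a5 (-0.076 under that block) and Slc16a10 (-0.049 in limma-voom, -0.43 without Axin1 library 3 in a leave-one-out range up to 0.68, -0.73 under that block). The cause of these changes was not tested. Deviations of same-numbered libraries had Pearson r of 0.234, 0.152 and -0.0229 across genes for numbers 1, 2 and 3. Pairs of unlike number had r from -0.249 to 0.175. Only numbers 1 and 2 also share a title number between the groups. These values do not settle whether the libraries are paired, and with no word on litters the main fit took no pairing. With the description's number as a replicate block, Slc2a1 had a log2 fold change of -1.31 (adjusted p in edgeR 0.0103) and Aspscr1 an adjusted p of 0.0665. Myc passed under both replicate blocks (0.0498 by the description's number and 0.00188 by the title's), and Slc5a3, Insr and Slc16a4 passed under the title-number block. Aspscr1 also missed without the robust step (0.0533). Slc2a4, Slc2a8 and Slc16a7 fell under the filter of 50 reads in 3 libraries and have no value there. DESeq2 gave these genes a fold change but no adjusted p, so they could not pass in it.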
